A study of Homo sapiens with 8 samples.

Results

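The replication-dependent histone genes encode the linker histone H1 and the core histones H2A, H2B, H3 and H4 that package newly copied DNA. Members were chosen by symbol alone (H1-1 to H1-6 and the numbered H2AC, H2BC, H3C and H4C genes), which gave 69 genes of 63241 in the NCI-H716 tables and 66 genes of 28043 in the HCT116 table. They comprised 6 H1, 17 H2A, 18 H2B, 13 H3 and 15 H4 genes, of which 55 lie on chromosome 6, 13 on chromosome 1 and 1 (H4C16) on chromosome 12. The HCT116 table used here covers the genome only as far as chromosome 9, and it lists H2AC25 and H2BC26 under older symbols, so these 3 genes were not counted as members in HCT116.

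These genes are switched on as a cell enters S phase, when DNA is copied and histones are needed to package it. Their messenger RNAs are unusual in that most end in a conserved stem-loop in place of a poly(A) tail. The stem-loop is bound by SLBP, which guides the processing and the translation of these messages.

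The study treated 2 human colorectal cancer cell lines with ZINC000101867325 (Z325), a compound picked by molecular docking against the FGF receptors, and compared them with control cells of the same line. HCT116 grows as an adherent epithelial line, and NCI-H716 is a line with neuroendocrine features. Each line had 2 control and 2 Z325-treated libraries, 8 in all, and the labels give neither a dose nor an exposure time. Libraries were made with a full-length cDNA amplification kit of the SMART-Seq2 type, in which cDNA synthesis starts from poly(A) tails, so the values describe the histone messages that such a kit captures. In bulk samples, fewer cells in S phase and less histone mRNA per cell cannot be told apart.

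Library totals ranged from 10210243 to 19738848 counts in NCI-H716 and from 13183792 to 13396225 in 3 HCT116 libraries, whereas Z325 replicate 2 of HCT116 held 3434620. Between 58.8% and 71.0% of the counts above 0 in the HCT116 libraries were even, so a count there is not always 1 independent fragment. EPCAM, a surface marker of epithelial cells, was at 608 to 679 FPKM (fragments scaled by transcript length and library total) in HCT116 and at 30.0 to 40.1 FPKM in NCI-H716. FPKM was computed from counts, exon lengths and listed totals for HCT116 and was deposited by the authors for NCI-H716. The values are therefore not compared between the lines. Of 7 neuroendocrine markers, 6 were detected well enough to be tested in NCI-H716, where the hormone granule protein gene CHGA was at 69.3 to 81.9 FPKM and the transcription factor gene NEUROD1 was near 0, at 0 to 0.05 FPKM. In HCT116 only 3 of the 7 were listed, and SCG2 alone was tested, at 5.42 to 8.65 FPKM. SCG2 was at 9.96 to 17.9 FPKM in NCI-H716. The epithelial markers CDH1 and KRT20 were near 0 in NCI-H716 (0 to 0.150 and 0 to 0.300 FPKM), as was VIL1 in HCT116 (0 to 0.0650 FPKM). The listed leukocyte markers summed to at most 0.102 FPKM in HCT116 and 3.25 FPKM in NCI-H716. Of 4 fibroblast markers, COL3A1 alone was well detected in NCI-H716, at 94.3 and 105 FPKM in control and 125 and 153 FPKM in treated libraries. The summed neuroendocrine markers of NCI-H716 stood at 379 FPKM or less in control and at 394 to 498 FPKM in treated libraries, and the summed epithelial markers at 571 to 575 FPKM in control and 493 to 506 FPKM in treated libraries. At an unadjusted p under 0.05, CHGB, INSM1 and SCG2 were higher (log2 fold changes 0.46, 0.68 and 0.53) and SYP and VIL1 lower (-0.71 and -0.85), and none of these markers was called by edgeR. The part of these markers in the results, the lower histone values of NCI-H716 among them, was not tested.

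The stem-loop was read directly from the reference genome. Its 16 bases were found within 100 bases after the stop codon in 66 of 69 members, as against 3 of 19855 other coding genes (0.0151%), which were H2AX, H3-4 and H3-7. The members without it in this window were H2BC10, H3C6 and H4C13. The 66 sequences fell into 7 forms, and those carried by the genes described here are shown with the loop of 4 bases in capitals. H1-4 shows the form of 40 members, H4C3 that of 10 H4 genes, H2BC12 that of 9 members, H4C14 that of 4 H4 genes, and the form of H2AC20 occurs in no other member.

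H1-4: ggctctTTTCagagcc
H4C3: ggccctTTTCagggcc
H2BC12: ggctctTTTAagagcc
H4C14: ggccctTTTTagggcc
H2AC20: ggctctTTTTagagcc

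On GRCh38 these stem-loops lie at chr6:26157095-26157110 (plus strand, H1-4), chr6:26104317-26104332 (plus strand, H4C3), chr6:27146366-27146381 (minus strand, H2BC12), chr1:149833032-149833047 (plus strand, H4C14) and chr1:149887391-149887406 (plus strand, H2AC20), each in the 3′ untranslated region. For 16 members the annotation also holds a transcript that runs more than 100 bases past the stem-loop, and 13 of these end with an AATAAA signal within their last 50 bases. The other 50 members with a stem-loop have no such transcript. The genes with a longer transcript include H2AC6, H2BC4, H2BC5, H2BC21, H3C10, H4C14 and H4C15.

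Many H2A and H2B genes sit head to head and share a promoter region. The members held 12 such pairs, with 194 to 251 bases between the start sites. The 250 bases before the start of H2AC20 (chr1:149886668-149886917, plus strand) contain the whole interval to its partner H2BC21, and the 250 bases before H2AC6 (chr6:26123922-26124171, plus strand) contain the whole interval to H2BC4. Both are shown from RefSeq on GRCh38.p14, because these pairs differ in their values in HCT116, with 3 motifs in capitals on either strand, the TATAAA box, the CCAAT box and the octamer ATTTGCAT.

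H2AC20: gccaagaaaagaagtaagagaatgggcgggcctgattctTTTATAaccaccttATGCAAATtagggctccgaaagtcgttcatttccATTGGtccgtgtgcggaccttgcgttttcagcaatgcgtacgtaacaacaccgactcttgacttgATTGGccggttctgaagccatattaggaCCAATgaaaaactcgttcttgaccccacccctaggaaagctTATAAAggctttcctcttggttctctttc
H2AC6: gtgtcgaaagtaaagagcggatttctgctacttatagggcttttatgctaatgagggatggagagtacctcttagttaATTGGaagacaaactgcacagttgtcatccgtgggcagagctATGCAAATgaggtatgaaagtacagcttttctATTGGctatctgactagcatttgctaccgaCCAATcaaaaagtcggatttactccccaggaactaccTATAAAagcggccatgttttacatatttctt

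RefSeq promoter windows (250 bases before to 50 after the start) were matched for 64 of 69 members. CCAAT, on either strand, was present in 84.4% of them and in 35.7% of all 27305 promoters. TATAAA was present in 65.6% as against 12% of all, and ATTTGCAT in 40.6% as against 1.80%. The octamer was found in 11 of 16 H2A and 14 of 18 H2B promoters but in 0 of 13 H4 promoters. No motif of the 3 contains another, and a match is a description of these letters only.

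H4C3, at chr6:26103933-26104337, was by far the most abundant member in both lines. It took 93.6% to 96.7% of all member counts in HCT116 and 82.4% to 87.7% in NCI-H716. Its level was 20161 and 17644 FPKM in the HCT116 controls and 13399 and 8396 FPKM after Z325. Among the 28043 genes listed for HCT116, which reach only as far as chromosome 9, H4C3 ranked 1 in both controls. Among the same genes it ranked 2 in both treated libraries. The next member, H1-2, was at 68.0 to 111 FPKM. In NCI-H716, H4C3 was at 8008 and 10883 FPKM in control and 8693 and 9508 FPKM in treated libraries, and H4C11 followed at 125 to 189 FPKM. Of 63241 genes listed there, H4C3 ranked 12 and 8 in control and 11 and 13 in treated libraries. No stretch of 75 bases of H4C3 occurs in another annotated transcript, so its reads were not shared with the other H4 genes at that length.

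In HCT116, the treated cells showed lower levels of H4C3, H1-4 and H2AC20 and higher levels of H2AC6, but no member passed the test at an adjusted p under 0.05. Of 66 members, 13 had no count in any HCT116 library and 24 passed the filter on low counts, and members that passed are not a sample of them all. Of the 24 tested, 0 were called, as against 5.78% of all 6491 genes tested by edgeR. At an unadjusted p under 0.05, 3 members were lower (12.5% of those tested, background 12.7%), so the share of lower members was near that of all genes, and 1 member was higher (background 11.2%). DESeq2 called 3 of 24 members lower (background 5.50%). Without Z325 replicate 1, 5 of 27 members tested were called lower (background 7.80%). Without Z325 replicate 2, 2 of 31 were called lower (background 7.92%) and 1 higher (background 7.25%), shares no larger than those of all genes. The fold changes of the tested members had a median of -0.39 on the log2 scale, beside -0.03 over all genes tested, and 16 of 24 were below 0. For 11 members the treated libraries both lay under the controls without overlap (background 29.0%), and for 4 they both lay above (background 24.8%).

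Of the linker histones, which clamp DNA where it enters and leaves the nucleosome, H1-2 and H1-4 were tested. H1-4 was at 17.8 and 9.20 CPM (counts scaled to a common library total by TMM) in the HCT116 controls and at 4.38 and 1.72 CPM after Z325. The groups did not overlap, and the control libraries also differed from each other. Its log2 fold change was -2.02 (SE 0.52, adjusted p = 0.0603). Z325 replicate 2 rests on 6 counts for this gene. H1-2, the most abundant H1 gene, was at 78.0 and 50.2 CPM in control and 71.0 and 62.5 CPM in treated libraries, which overlapped (log2 fold change 0.06, SE 0.24, adjusted p = 0.916). H1-3 and H1-5 had 0 counts in all 4 HCT116 libraries, where a count of 0 allows up to 0.217 to 0.859 CPM per library by counting error alone. These limits take each count as 1 independent fragment, and they are too low where that does not hold.

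The H2A genes, whose protein pairs with H2B at the faces of the nucleosome, went both ways. H2AC20 was at 39.1 and 25.2 CPM in control and at 18.4 and 9.45 CPM in treated HCT116 libraries (log2 fold change -1.16, SE 0.37, adjusted p = 0.105). H2AC6 was at 26.1 and 29.5 CPM in control and at 50 and 37.2 CPM after Z325 (log2 fold change 0.66, SE 0.25, adjusted p = 0.150). Neither gene showed overlap between the groups. H2AC12 was at 9.47 and 5.37 CPM in control and at 4.54 and 1.72 CPM in treated libraries (log2 fold change -1.13, SE 0.54). Over the 7 H2A genes tested, 2 had a fold change above 0 and 5 below 0, with a median of -0.61.

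The H2B genes were the class in which values above 0 prevailed in HCT116, at 4 of 6 tested with a median log2 fold change of 0.35. H2BC12, the most abundant of them, was at 30.0 and 28.1 CPM in control and 37.0 and 35.2 CPM in treated libraries, which did not overlap (log2 fold change 0.32, SE 0.23, adjusted p = 0.451). H2BC5 was at 11.6 and 14.1 CPM in control and 21.5 and 17.2 CPM after Z325 (log2 fold change 0.60, SE 0.30). H2BC21 was at 4.12 and 2.15 CPM in control and 1.25 and 2.01 CPM in treated libraries. The treated values thus lay above the controls for H2BC12 and H2BC5 and below them for H2BC21.

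H3 and H4 form the tetramer at the centre of the nucleosome. H3C2 was at 3.11 and 3.53 CPM in control and 0.860 and 1.72 CPM in treated HCT116 libraries (log2 fold change -1.48, SE 0.68, adjusted p = 0.232). H3C10, the H3 gene with the highest FPKM, was at 10.9 and 13.3 CPM in control and 10.6 and 7.45 CPM in treated libraries (log2 fold change -0.40, SE 0.35). All 4 H4 genes tested (H4C3, H4C4, H4C5 and H4C11) had fold changes below 0, from -1.18 to -0.39.

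H4C3 itself was at 7877 and 7226 CPM in the HCT116 controls and at 5685 and 3346 CPM after Z325. The groups did not overlap, and Z325 replicate 2 was the lowest library. Its log2 fold change was -0.74 (SE 0.23, adjusted p = 0.0931). The size depended on which treated library was kept, at -0.38 without Z325 replicate 2, the shallow library, and -1.19 without Z325 replicate 1. The remaining 65 members together held 292 and 249 CPM in control and 286 and 229 CPM in treated libraries. This sum overlapped between groups (271 ± 30.5 against 258 ± 39.9 CPM, mean ± SD, n = 2 each), and its log2 ratio of -0.07 turned to 0.05 without control replicate 1 and to 0.08 without Z325 replicate 2.

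**Figure D1:**
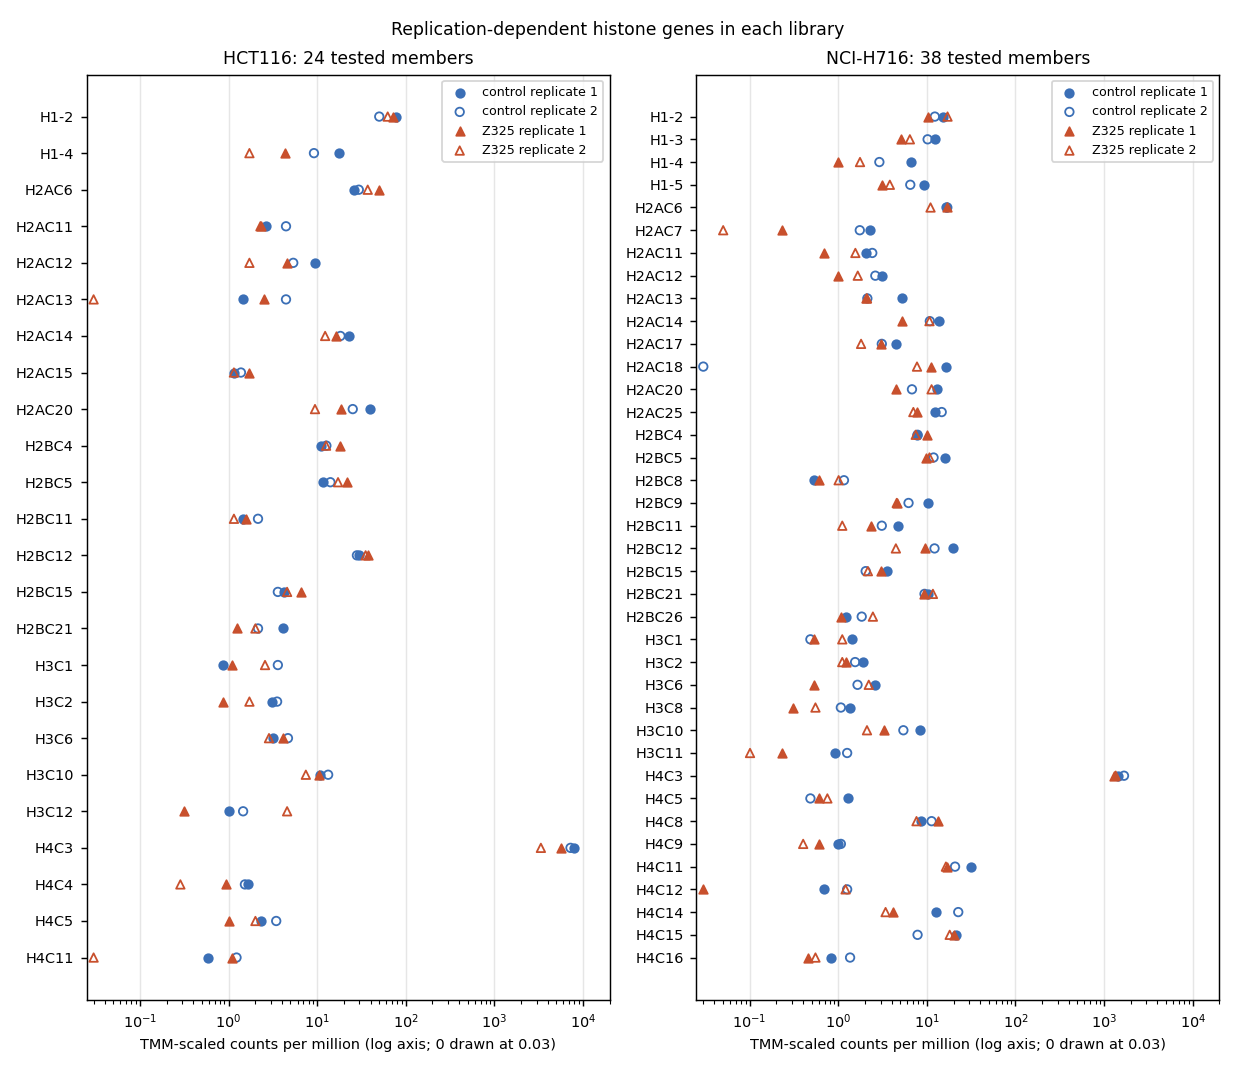
Level of each tested member in each library, as CPM scaled by TMM on a log axis, for HCT116 (24 genes) and NCI-H716 (38 genes), with circles for control and triangles for Z325. H4C3 lies far to the right of all other members in both lines, and most treated points of NCI-H716 lie left of the controls.

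In NCI-H716, histone gene levels were lower in treated than in control libraries across all 5 classes, with H1-3, H1-4 and H1-5, H2AC7, H2BC12, H3C10 and H4C11 among them. Only H4C14 passed the test, and its call was lost when it was summed with H4C15, a gene of the same sequence. Of 69 members, 7 had no count in any library and 38 were tested, of which 1 was called, as against 0.502% of all 14142 genes tested. At an unadjusted p under 0.05, 12 of 38 members were lower (31.6%, background 9.26%) and 0 were higher (background 7.59%). Members that passed the filter are not a sample of them all here either, and members that share reads are not independent. Among the 12, H2AC7 (30 and 18 counts in control, 3 and 1 in treated libraries) and H3C11 (12 and 13, 3 and 2) passed through their control counts. DESeq2 also called 1 member lower (background 1.35%), again H4C14. The count called lower was 2 of 40 without control replicate 1 (background 0.0666%), 5 of 42 without Z325 replicate 1 (background 5.95%) and 3 of 42 without Z325 replicate 2 (background 0.726%). H4C14 and H2AC19, each with a near-identical copy, were among those called in all 3 cases. The median log2 fold change was -0.63, beside -0.01 over all genes tested, and 31 of 38 were below 0. For 23 members the treated libraries both lay under the controls without overlap (background 25.1%), and for 0 they both lay above (background 24.3%). The median over the tested members stayed below 0 without any of the 4 libraries, from -0.85 to -0.43.

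The linker histones H1-3 and H1-5, which had no counts in HCT116, were well counted here. H1-3 was at 12.3 and 10.2 CPM in control and at 5.12 and 6.43 CPM after Z325 (log2 fold change -0.96, SE 0.28, adjusted p = 0.166). H1-5 was at 9.24 and 6.50 CPM in control and at 3.13 and 3.82 CPM in treated libraries (log2 fold change -1.17, SE 0.34, adjusted p = 0.162). H1-4 was at 6.59 and 2.91 CPM in control and 0.993 and 1.76 CPM in treated libraries. None of these 3 overlapped between the groups. H1-2, the H1 gene with the highest level, overlapped, at 15.1 and 12.3 CPM in control and 10.3 and 17.1 CPM in treated libraries (log2 fold change 0.01, SE 0.29, adjusted p = 0.994).

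H2AC7 had the lowest fold change of the tested members, at 2.27 and 1.75 CPM in control and 0.229 and 0.0503 CPM in treated NCI-H716 libraries (log2 fold change -3.91, SE 0.86, adjusted p = 0.0923). The treated libraries held 3.17 and 0.66 expected counts of it, and 83.0% of its stretches of 75 bases are found in a different gene of the annotation, which leaves this value uncertain. H2AC14, the H2A gene with the highest FPKM, was at 13.7 and 10.8 CPM in control and 5.27 and 10.7 CPM in treated libraries (log2 fold change -0.61, SE 0.34, adjusted p = 0.394). It shares 64.2% of such stretches with H2AC13. Of 10 H2A genes tested, 9 were below 0, with a median of -0.75.

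H2BC12 was at 19.5 and 12.2 CPM in control and at 9.47 and 4.47 CPM in treated NCI-H716 libraries (log2 fold change -1.21, SE 0.37, adjusted p = 0.173). The direction was the opposite of that in HCT116. H2BC12 shares 38.95% of its stretches of 75 bases with other annotated genes, which leaves part of its count uncertain. H2BC4 and H2BC21 overlapped between the groups, with log2 fold changes of 0.17 and 0.09. All stretches of the shortest H2BC4 transcript (100%), read on either strand, also lie in an unnamed annotated locus, so its values are uncertain as well. Over the 9 H2B genes tested the median was -0.12, the value closest to 0 of the 5 classes.

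All 6 H3 genes tested were below 0, with a median of -0.98. H3C10 was at 8.33 and 5.43 CPM in control and at 3.28 and 2.11 CPM after Z325 (log2 fold change -1.37, SE 0.40, adjusted p = 0.161). H3C2, the H3 gene with the highest FPKM, was at 1.89 and 1.55 CPM in control and 1.22 and 1.11 CPM in treated libraries (log2 fold change -0.57, SE 0.57, adjusted p = 0.655). H4C3 was at 1449.5 and 1677 CPM in control and at 1285 and 1351 CPM in treated libraries (log2 fold change -0.25, SE 0.16, adjusted p = 0.459). The groups of H4C3 did not overlap by CPM but overlapped by FPKM, at 8008 and 10883 in control and 8693 and 9508 in treated libraries. The other H4 genes together were at 79.2 and 67.8 CPM in control and 57.7 and 49.1 CPM in treated libraries, without overlap.

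The sum over all members without H4C3 was 277 ± 46 CPM in control and 190.2 ± 0.501 CPM in treated NCI-H716 libraries (mean ± SD, n = 2 each), a log2 ratio of -0.54 that became -0.36 without control replicate 1. All 5 classes had lower means after Z325 in this line. The ratio of treated to control means was 0.647 for H1, 0.664 for H2A, 0.733 for H2B, 0.513 for H3 and 0.727 for H4 without H4C3. In HCT116 the same ratios were 0.893, 0.836, 1.25, 0.813 and 0.898, with H2B the only class above 1.

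**Figure D2:**
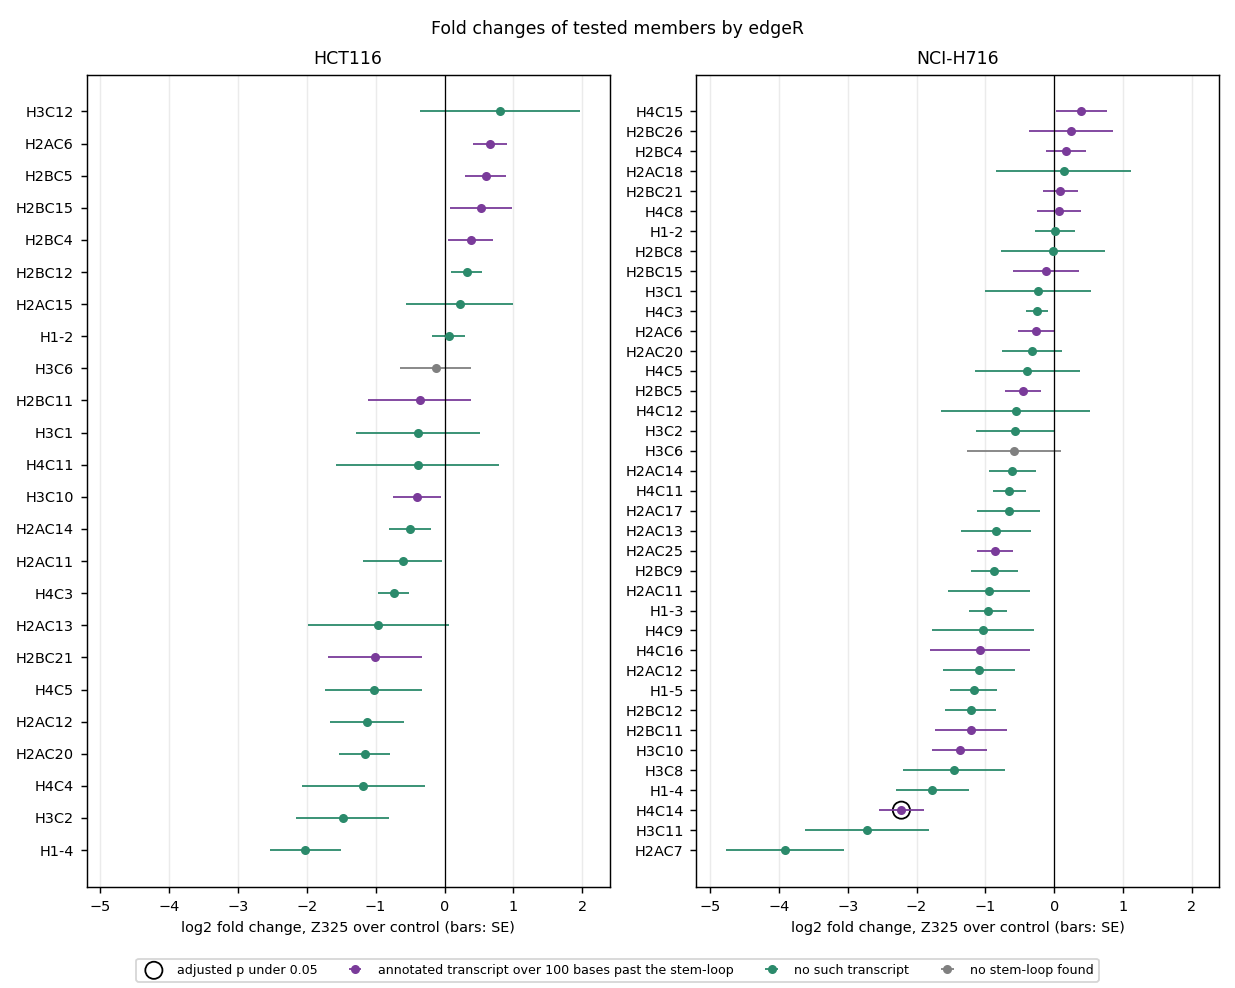
Log2 fold changes of the tested members by edgeR, ordered by size within each line, with bars for the SE and colours for the annotated transcript form. The ring marks H4C14, the gene called at an adjusted p under 0.05 when its copy H4C15 was counted apart.

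The H4C14 call rested on how reads were divided between identical copies. H4C14 (chr1:149832657-149839767) and H4C15 (chr1:149854045-149861159) share 100% of the 75-base stretches of their shortest transcripts. H4C14 held 12.6 and 22.6 CPM in control and 4.12 and 3.42 CPM in treated NCI-H716 libraries (log2 fold change -2.22, SE 0.33, adjusted p = 0.0180). H4C15 held 21.3 and 7.85 CPM in control and 20.5 and 18.1 CPM in treated libraries (log2 fold change 0.39, SE 0.37). Their sum was steadier, at 33.8 and 30.4 CPM in control and 24.7 and 21.5 CPM in treated libraries, with a log2 fold change of -0.48 (SE 0.20, adjusted p = 0.269). The sum was thus lower in both treated than in both control libraries, with a smaller fold change than H4C14 alone and no call.

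H2AC18 and H2AC19, another pair of copies, showed the same division in full. In control replicate 1 and both treated libraries of NCI-H716 all reads of the pair were placed on H2AC18, at 16.5, 11 and 7.74 CPM, and in control replicate 2 all were placed on H2AC19, at 11.7 CPM. Summed, the pair had a log2 fold change of -0.60 (SE 0.28, adjusted p = 0.312). H4C11 and H4C12 share over 91% of their stretches of 75 bases, and here H4C11 held nearly all counts, at 31.3 and 20.8 CPM in control and 16.8 and 16.4 CPM in treated libraries. In HCT116 the H2AC18 and H2AC19 pair held at most 8 counts in a library, and H4C14 with H4C15 had a count in 1 library only.

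**Figure D3:**
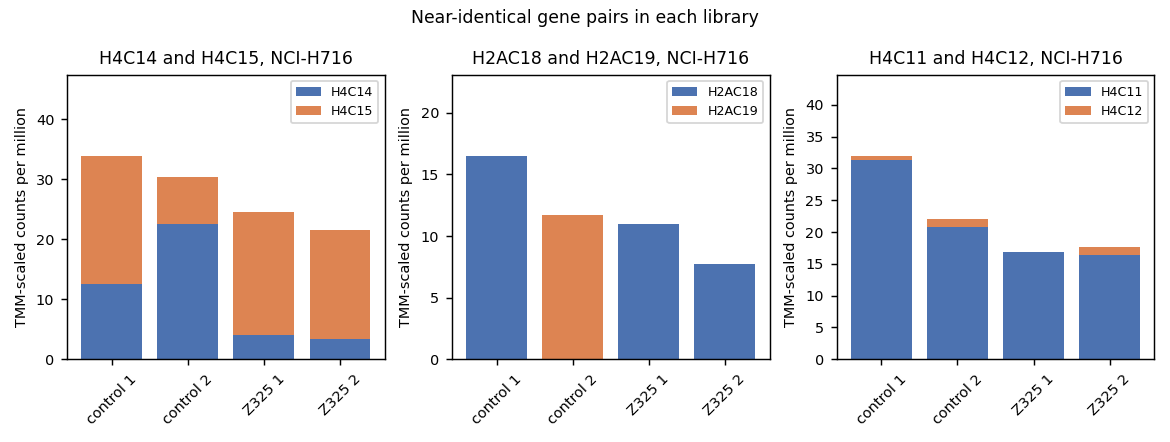
CPM of near-identical gene pairs in the 4 NCI-H716 libraries, stacked so that the bar height is the sum of the pair. H4C14 and H4C15 exchange share between control replicates 1 and 2 while their sum stays at 33.8 and 30.4, and all reads of the second pair fall on H2AC19 in control replicate 2.

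Genes with an annotated transcript past the stem-loop differed from the rest in their fold changes, as a description without a test. In HCT116, 4 of 7 tested genes with such a transcript (H2AC6, H2BC4, H2BC5 and H2BC15) were above 0, and the median was 0.38. Of the 16 without one, 4 were above 0 and the median was -0.68. All H2B genes tested in HCT116 except H2BC12 had such a transcript, and H2B was the class mostly above 0 there. Transcript form and histone class therefore cannot be told apart in these values. In NCI-H716 the medians were -0.26 over 13 genes and -0.75 over 24 genes. The same order thus held in both lines, and H4C14, with the longer transcript, was among the lowest in NCI-H716.

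Head-to-head partners did not always have fold changes of the same sign. In HCT116, H2AC20 and H2BC21 were both below 0 (-1.16 and -1.01), and H2AC6 and H2BC4 were both above 0 (0.66 and 0.38). H2AC12 and H2BC12, whose starts are 251 bases apart, differed, at -1.13 and 0.32. The shared sequence of H2BC4 and H2BC12 given above was read from the annotation. No other gene listed for HCT116 covered exon bases of either, so how far that uncertainty holds for these HCT116 values was not tested. In all, 4 of 5 pairs with both partners tested had the same sign in HCT116 and 2 of 5 in NCI-H716, where H2AC12 and H2BC12 were both below 0 (-1.09 and -1.21).

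The difference in response between the lines was tested as an interaction over all 8 libraries. Of 41 members tested, 0 were called by edgeR, as against 0.0654% of all 7642 genes tested, and 5 were at an unadjusted p under 0.05 (background 14.3%). H1-3, H1-5, H3C4, H3C11 and H4C9 entered this test through their NCI-H716 counts alone, with 0 counts in every HCT116 library, so no call was possible for these 5. Over the other 36 members, the 5 at an unadjusted p under 0.05 were 13.9%. They include H4C14 and H2BC9, whose only HCT116 counts were 2 and 4, both in Z325 replicate 2. Their log2 differences of -5.60 (SE 2.27) and -5.33 (SE 2.22) thus rest on nearly no HCT116 counts. The 13.9% is therefore not a share of members well counted in both lines. DESeq2 called 0 of the 41 members (background 1.73%). H2BC12 had the smallest adjusted p, with a log2 difference of -1.54 (NCI-H716 minus HCT116, SE 0.50, adjusted p = 0.213), followed by H2BC5 at -1.07 (SE 0.41, adjusted p = 0.268). For H2AC6 the difference was -0.93 (SE 0.38, adjusted p = 0.296). The opposite directions of H2BC12 in the lines were therefore not shown to differ. Levels were not compared between the lines, since their files were made by different counting and HCT116 covers part of the genome.

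The genes that act with the histones were read from 4 lists. S phase genes fell in HCT116, with a median log2 fold change of -0.87. Of 7 tested, 0 were called higher (background 2.83%) and 4 were called lower (background 2.94%). They were MCM3, MCM4 and MCM7, subunits of the helicase that opens DNA for copying, and RRM2, a subunit of the enzyme that makes deoxynucleotides. MCM4 was at 137 and 131 CPM in control and 50.3 and 51.9 CPM after Z325 (log2 fold change -1.39, SE 0.17, adjusted p = 0.00499). MCM7 was at 234 and 253 CPM in control and 102 and 118 CPM in treated libraries (log2 fold change -1.15, SE 0.15, adjusted p = 0.00674), and MCM3 at 276 and 278 CPM and at 140.4 and 162 CPM (log2 fold change -0.87, SE 0.14, adjusted p = 0.0140). The groups of these helicase genes did not overlap. RRM2 was at 1723 and 1927 CPM in control and 1055 and 1051 CPM in treated libraries (log2 fold change -0.79, SE 0.12, adjusted p = 0.0134). By limma none of the 4 was called, where 0.277% of all genes were called lower as against 2.94% by edgeR. The calls were also lost with either control library left out, where 1 control sample remains and far fewer genes were called. In NCI-H716, 0 of 23 were called by edgeR (background 0.502%) and 6 were called lower by DESeq2 (background 1.35%). At an unadjusted p under 0.05, 11 were lower (background 9.26%), and the median of all 23 was -0.50. The smallest adjusted p there was for RRM2, at 420 and 426 CPM in control and 240 and 279 CPM in treated libraries (log2 fold change -0.70, SE 0.16, adjusted p = 0.0986).

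Histone chaperones carry histones to DNA. In HCT116, 2 of 7 tested were called lower (background 2.94%) and 1 higher (background 2.83%). The lower genes were HJURP (log2 fold change -0.95, SE 0.18, adjusted p = 0.0232), which loads the centromeric variant CENPA, and RBBP4 (-0.68, SE 0.15, adjusted p = 0.0391), a subunit of the assembly factor CAF-1. ASF1A, which hands over H3 with H4, rose from 771 and 767 CPM to 1691 and 1576 CPM (log2 fold change 1.09, SE 0.12, adjusted p = 0.00363). HJURP was at 107 and 123 CPM in control and 56.5 and 62.7 CPM in treated libraries, and RBBP4 at 388 and 496 CPM and at 275 and 277 CPM. These 3 calls were lost without either control library, and those of HJURP and RBBP4 by limma. Far fewer genes of all were called in these settings. In NCI-H716, 0 of 23 were called by edgeR (background 0.502%), and DESeq2 called 1 lower (background 1.35%) and 1 higher (background 1.22%). ASF1B was at 86.1 and 54.1 CPM in control and 35.3 and 30.5 CPM in treated libraries (log2 fold change -1.10, SE 0.23, adjusted p = 0.0842). NAP1L1, with the next smallest p, was higher after Z325 (log2 fold change 0.75, SE 0.20, adjusted p = 0.129). It was at 353 and 468 CPM in control and 597 and 786 CPM in treated libraries. Of all 23 tested, 3 had fold changes above 0 and 20 below, with a median of -0.39.

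Of the factors of histone mRNA synthesis and processing, 1 of 13 was called lower in HCT116 (background 2.94%), the cyclin gene CCNA2. It was at 366 and 423 CPM in control and 243 and 225 CPM in treated libraries (log2 fold change -0.75, SE 0.14, adjusted p = 0.0207). This call was lost without either control library and by limma, settings in which far fewer genes of all were called. SLBP was at 1110.4 and 1318 CPM in control and 883 and 890.1 CPM in treated HCT116 libraries (log2 fold change -0.45, SE 0.13, adjusted p = 0.0841), without overlap. In NCI-H716, SLBP overlapped between the groups, at 88.8 and 63.2 CPM in control and 67.7 and 52.8 CPM in treated libraries. Of 26 factors there, 0 were called by edgeR (background 0.502%) and 0 by DESeq2 (background 1.35% lower and 1.22% higher). At an unadjusted p under 0.05, 1 was lower (background 9.26%) and 1 higher (background 7.59%). The medians of this list were -0.23 and -0.02.

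Replication-independent histones, most of whose messages carry poly(A) tails, had medians of -0.19 over 6 genes in HCT116 and -0.32 over 11 genes in NCI-H716. None was called by edgeR in either line (background 5.78% in HCT116 and 0.502% in NCI-H716). The list also holds H2AX, H3-4 and H3-7, which have the stem-loop. Of these, H2AX alone was tested, in NCI-H716 (log2 fold change -0.32, SE 0.25), and the median of the other 10 genes there was -0.29. H2AW and H2BU1, the HCT116 names of H2AC25 and H2BC26, were in the list but were not among the 6 genes tested. At an unadjusted p under 0.05, 1 was lower (background 12.7%) and 1 higher (background 11.2%) in HCT116, and 2 were lower in NCI-H716 (background 9.26%). DESeq2 called 1 higher in HCT116 (background 6.19%) and 1 lower in NCI-H716 (background 1.35%). H2AZ1, the variant H2A gene of highest level, was at 13134 and 14006 CPM in control and 16060 and 13008 CPM in treated HCT116 libraries, which overlapped (log2 fold change 0.10, SE 0.15). CENPA, the centromeric H3, was at 52.7 and 39.0 CPM in control and 27.3 and 23.8 CPM in treated NCI-H716 libraries (log2 fold change -0.85, SE 0.21, adjusted p = 0.120). In HCT116, CENPA was at 235 and 276 CPM in control and 189 and 179.9 CPM in treated libraries (log2 fold change -0.47, SE 0.14, adjusted p = 0.0927). H2AZ2 was higher there, at 483 and 599 CPM in control and 744 and 696 CPM in treated libraries (log2 fold change 0.41, SE 0.14, adjusted p = 0.128).

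**Figure D4:**
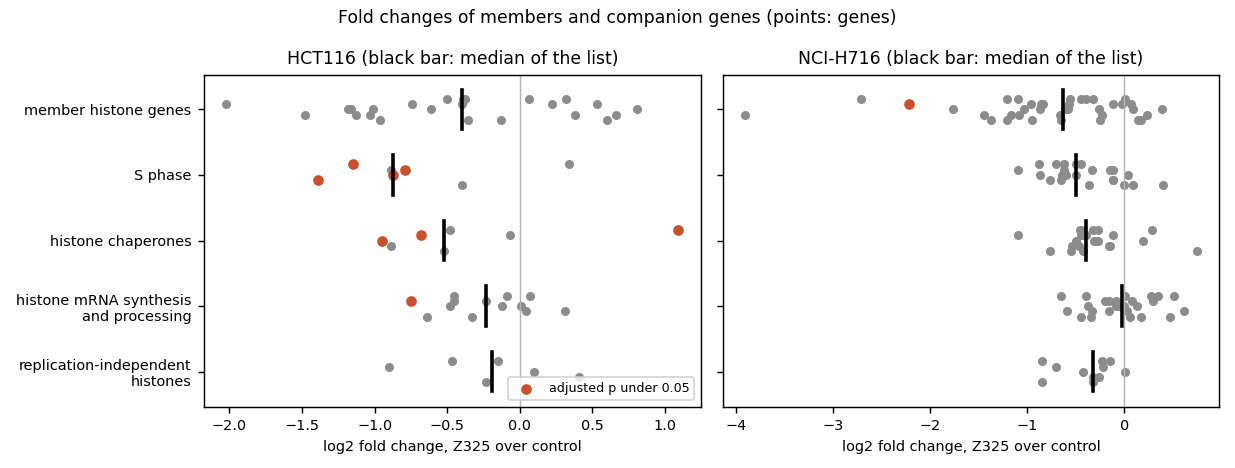
Log2 fold changes of the tested members and of 4 lists of companion genes in each line, with a point for each gene and a black bar for the median of the list. Coloured points mark an adjusted p under 0.05, and the S phase median is -0.87 in HCT116 and -0.50 in NCI-H716.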

How the data were processed

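RNA had been sequenced from control and Z325-treated HCT116 and NCI-H716 cells, 2 libraries per group and 8 in all. The paper's methods give TrimGalore, STAR on GRCh38 and RSEM, and the submitters' processing notes name Bowtie2 2.5.0, featureCounts and hg38. For NCI-H716 the authors deposited RSEM expected counts, TPM and FPKM per gene. For HCT116 the authors deposited raw read counts per gene with exon lengths. The treatment of reads that match several genes is not given in the sources used here. The HCT116 table ends on chromosome 9, 4 broken or unfinished lines were left out, and its FPKM was computed from counts, lengths and listed totals. The deposited TPM was not used in a test.

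Members and lists were chosen with earlier results of these data known. Each line was fitted alone in edgeR 4.0.16 (R 4.3.3) with TMM scaling, filterByExpr and the quasi-likelihood test on group. Expected counts were rounded to whole numbers, and p-values were adjusted by Benjamini-Hochberg over all genes tested. The interaction was fitted over 8 libraries on genes listed in both kinds of file. CPM values are scaled by TMM. The fits were tested on simulated data. Alternatives used DESeq2 1.42.0, limma 3.58.1 on log2(FPKM + 1) with a mean-variance trend, library size alone, no filter, a minimum of 10 counts in every library, a replicate block, all 8 libraries in 1 fit and each library left out. Summing near-identical pairs and thinning to the shallowest library were added after seeing the data.

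Named members were those at an adjusted p under 0.05, the 5 with the smallest p in each line and the most abundant of each class, and from each list those called and up to 3 with the smallest p. H1-3, H2BC5, H2BC4, H2BC21, H2AC12 and members of the pairs were also named after their values were seen, as were H4C11 and H2AZ1. Shared stretches of 75 bases, stem-loops and transcript ends were computed from GENCODE v44 and GRCh38, and promoter sequences were taken from RefSeq (GRCh38.p14). With 2 libraries per group, p-values measure the spread between these libraries, and floors and counts cover counting error only.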

Additional observations from a re-analysis of the deposited data

How the results depend on the processing

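Results were recomputed under other tools, filters and scalings. In HCT116, the members called lower were 0 and became 3 with DESeq2 (5.50% of all genes lower), 3 of 53 with no filter (2.85% of all genes), 2 of 11 with a minimum of 10 counts in every library (7.06%) and 3 of 24 with the replicate block (3.14%), and 0 to 5 with each library left out, with 0 to 1 called higher. H1-4, H2AC20 and H4C3 were those called by DESeq2, with no filter and with the block. The median of the tested members, -0.39, became 0.04 over the 11 genes with 10 counts in every library, 0.00 over 41 members with all 8 libraries in 1 fit, where 5 had 0 counts in every HCT116 library, -0.12 over the other 36 (added after seeing the data), and -0.66 to -0.21 with a library left out. In NCI-H716, 1 member was called lower, which became 6 of 62 with no filter (1.49% of all genes), 9 of 38 with the replicate block (9.45%), 0 with limma, 0 with near-identical pairs merged (added after seeing the data) and 0 with all 8 libraries in 1 fit, and 1 to 5 with each library left out. There, 0 were called higher, and 1 with the replicate block (7.50%), and 0 to 1 with each library left out. The median of -0.63 there went from -0.85 to -0.43 with each library left out. The interaction called 0 members and, with no filter, 1 of 62 lower (0.266% of all genes), which was H2AC19. H2AC19 was also among the 6 called lower with no filter in NCI-H716, and H2AC18 was the member called higher with the replicate block. The reads of this pair were divided differently between libraries, as described above. The log2 ratio of H4C3 was -0.74 in HCT116 (-1.17 to -0.41 with a library left out) and -0.25 in NCI-H716 (-0.05 by FPKM). For the other members it was -0.07 in HCT116 and -0.54 in NCI-H716, and ran from -0.24 to 0.08 and from -0.70 to -0.36 with a library left out. The log2 fold change of H1-2, near 0 in both lines, ran from -0.23 to 0.41 in HCT116 and from -0.40 to 0.32 in NCI-H716 with a library left out, and was -0.03 in NCI-H716 with the replicate block. Where a library was left out, the lone sample of its group was assumed to vary like the others. Over all genes, 375 were called in HCT116 and 759 by DESeq2, and 71 in NCI-H716 and 364 by DESeq2. Apart from settings whose own construction changes the genes or libraries used, the cause of these changes was not tested.

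The groups share replicate numbers, but no source says that a number marks a shared culture or day. Deviations of same-numbered libraries from their group means correlated at -0.022 over genes in HCT116 and 0.286 in NCI-H716. With the replicate block, 381 of all genes were called in HCT116 and 2397 in NCI-H716. The members it called lower in NCI-H716 were H1-3, H1-4, H1-5, H2AC7, H2AC25, H2BC12, H3C10, H4C11 and H4C14.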
